A study of Mus musculus with 4 samples.

Results

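The cytochrome P450 genes of families 2, 3 and 4 in the mouse genome were chosen by symbol (Cyp2, Cyp3 or Cyp4, then 1 subfamily letter and a number), which gave 72 of the 21853 protein-coding genes of GENCODE vM21. Peaks of 3 chromatin immunoprecipitation libraries were placed on them. KMT9 is a methyltransferase made of a catalytic subunit, KMT9alpha, and a partner, KMT9beta, and it adds 1 methyl group to lysine 12 of histone H4 (H4K12me1). The libraries were made with antibodies against KMT9alpha, KMT9beta and H4K12me1, with 1 library each and no replicate; an input library belongs to the same culture and was not analysed here. The culture was an organoid line, clone 3 at passage 14, from a mouse colorectal tumour of the azoxymethane and dextran sulfate sodium model. All 4 libraries carry the same labels, in which genotype is given as NA and the treatment text names both 1 µM tamoxifen and vehicle without saying which a library received. The organoids are 1 clone, so nothing here measures the spread between tumours or animals, and no difference below has a replicate check or a test. Read depth is unknown, since the deposited files hold peaks and not reads.

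Cytochrome P450 enzymes are haem proteins of the endoplasmic reticulum membrane that insert an oxygen atom into their substrate with electrons passed on by P450 oxidoreductase. Families 2 and 3 hold most of the enzymes that oxidise drugs and other foreign compounds, together with epoxygenases of arachidonic acid, while family 4 hydroxylates the far end of fatty acids and eicosanoids. In mammals most of these genes sit in tandem arrays of close copies and are best known from the hepatocyte, with a smaller set used by intestinal epithelium.

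Most of these genes had no promoter peak, and their promoters were poor in CpG dinucleotides. KMT9alpha had a peak within 1 kb of an annotated transcript start at 6 of the 72 members, KMT9beta at 19 and H4K12me1 at 10. Cyp4f13 and Cyp4f17 carried all 3, and 48 members carried none. The members carrying KMT9alpha were Cyp4f13, Cyp4f16, Cyp4f17, Cyp2j6, Cyp2u1 and Cyp2c29. The group was itself selected on an earlier result of these peak lists, that gene sets rich in P450 genes held few promoters with all 3 peaks, so the low promoter counts are a description and support nothing.

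The promoter sequences of 8 members are given as examples behind these counts. Each is the 300 bases from 250 before to 50 after the RefSeq start (GRCm38.p6, the mm10 assembly), 5′ to 3′ on the gene's strand, with every CpG dinucleotide in capitals. The first 3 belong to members with KMT9alpha although they hold few CpG dinucleotides, namely Cyp4f13 (chr17:32947312-32947611, minus strand), Cyp4f16 (chr17:32536307-32536606, plus strand) and Cyp2j6 (chr4:96553602-96553901, minus strand). Cyp2r1 (chr7:114562923-114563222, minus strand) and Cyp4v3 (chr8:45333114-45333413, minus strand) follow as CpG-rich promoters without KMT9alpha. Cyp3a11 (chr5:145879805-145880104, minus strand), Cyp2b10 (chr7:25897408-25897707, plus strand) and Cyp2c65 (chr19:39060756-39061055, plus strand) had no promoter peak in any library. No RefSeq window was matched for 13 members, among them Cyp2u1 and Cyp4f17, which both had KMT9alpha. The 8 sequences were picked and do not measure how KMT9alpha goes with the number of CpG dinucleotides.
Cyp4f13: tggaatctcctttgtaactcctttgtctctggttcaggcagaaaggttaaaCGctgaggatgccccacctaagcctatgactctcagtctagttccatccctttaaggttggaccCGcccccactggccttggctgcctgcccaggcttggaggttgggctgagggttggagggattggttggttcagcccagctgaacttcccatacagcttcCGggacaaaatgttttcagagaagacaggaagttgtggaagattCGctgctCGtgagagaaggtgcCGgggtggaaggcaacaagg
Cyp4f16: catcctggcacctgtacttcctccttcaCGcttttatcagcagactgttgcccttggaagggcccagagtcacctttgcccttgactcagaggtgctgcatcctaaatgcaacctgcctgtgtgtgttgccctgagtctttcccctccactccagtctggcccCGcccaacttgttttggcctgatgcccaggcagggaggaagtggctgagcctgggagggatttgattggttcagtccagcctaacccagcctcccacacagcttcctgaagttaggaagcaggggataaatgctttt
Cyp2j6: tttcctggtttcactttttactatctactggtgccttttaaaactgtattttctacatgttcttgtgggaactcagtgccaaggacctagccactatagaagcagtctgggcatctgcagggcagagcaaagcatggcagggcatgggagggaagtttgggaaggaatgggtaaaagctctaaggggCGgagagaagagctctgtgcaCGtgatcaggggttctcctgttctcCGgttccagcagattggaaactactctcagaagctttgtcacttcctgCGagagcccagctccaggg
Cyp2r1: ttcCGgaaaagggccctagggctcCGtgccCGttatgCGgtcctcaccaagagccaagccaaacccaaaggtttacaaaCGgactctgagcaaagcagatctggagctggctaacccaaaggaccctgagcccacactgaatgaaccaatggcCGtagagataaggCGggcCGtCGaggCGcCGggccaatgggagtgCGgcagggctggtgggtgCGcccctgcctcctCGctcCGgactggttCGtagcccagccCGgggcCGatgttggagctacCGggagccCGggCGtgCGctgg
Cyp4v3: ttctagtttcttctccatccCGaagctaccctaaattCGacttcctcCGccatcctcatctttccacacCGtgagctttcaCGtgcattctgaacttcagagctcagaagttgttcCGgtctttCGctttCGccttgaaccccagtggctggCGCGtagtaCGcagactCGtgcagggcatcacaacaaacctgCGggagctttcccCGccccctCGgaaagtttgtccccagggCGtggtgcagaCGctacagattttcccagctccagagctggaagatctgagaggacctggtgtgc
Cyp3a11: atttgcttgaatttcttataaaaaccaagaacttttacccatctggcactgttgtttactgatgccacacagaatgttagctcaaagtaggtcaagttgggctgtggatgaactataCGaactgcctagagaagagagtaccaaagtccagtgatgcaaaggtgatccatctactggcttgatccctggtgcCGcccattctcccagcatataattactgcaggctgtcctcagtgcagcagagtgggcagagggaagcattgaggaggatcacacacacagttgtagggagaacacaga
Cyp2b10: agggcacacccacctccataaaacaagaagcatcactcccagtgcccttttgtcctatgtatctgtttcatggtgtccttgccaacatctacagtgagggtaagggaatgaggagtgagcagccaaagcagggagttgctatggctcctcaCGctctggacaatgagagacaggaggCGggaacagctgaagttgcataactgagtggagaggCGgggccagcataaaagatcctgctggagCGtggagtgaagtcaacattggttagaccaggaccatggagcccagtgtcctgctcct
Cyp2c65: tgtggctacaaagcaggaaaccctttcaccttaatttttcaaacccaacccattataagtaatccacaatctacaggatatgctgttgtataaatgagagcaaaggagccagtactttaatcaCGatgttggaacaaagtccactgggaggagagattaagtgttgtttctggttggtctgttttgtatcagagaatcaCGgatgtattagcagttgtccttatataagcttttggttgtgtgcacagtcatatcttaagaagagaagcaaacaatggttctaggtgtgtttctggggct
The Cyp2r1 window held 22 CpG dinucleotides and that of Cyp4v3 held 17. That of Cyp4f13 held 6, that of Cyp4f16 held 2 and that of Cyp2j6 held 4. The windows of Cyp3a11, Cyp2b10 and Cyp2c65, with no peak, held 2, 4 and 2, so the number of CpG dinucleotides in this window did not separate Cyp4f16 or Cyp2j6 from the members without a peak.

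Set against all protein-coding genes, the members' promoters held fewer peaks of every library. KMT9alpha was at 8.33% of the members (95% exact binomial interval 3.12 to 17.3) and at 54.2% of all genes. KMT9beta was at 26.4% of the members (16.7 to 38.1) and at 65.1% of all genes. H4K12me1 was at 13.9% of the members (6.87 to 24.1) and at 44.9% of all genes. All 3 together were at 2.78% of the members (0.338 to 9.68) and at 35.5% of all genes, and no peak of any library was found at 66.7% of the members (54.6 to 77.3) and at 29.6% of all genes. These intervals cover counting error only, and neighbouring members are copies of each other and not independent draws.

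Most of that gap was shared by other genes with promoters as poor in CpG. The CpG ratio, observed over expected in the 1 kb on either side of the most 5′ start, had a median of 0.127 in the members and 0.48 in the other genes. All genes were divided into 5 classes of equal size by this ratio. Class 1, with ratios up to 0.176, held 51 of the 72 members, class 2, up to 0.36, held 16, class 3 held 3, class 4 held 2 and the richest class held none. If each member carried peaks at the rate of the other genes in its class, 19.4 members would have KMT9beta, 12.8 would have H4K12me1 and 49.3 would have no peak, beside the observed 19, 10 and 48. The same reckoning gave 10.6 members with KMT9alpha and 6.4 with all 3, beside the observed 6 and 2. With 20 classes in place of 5 these numbers became 9.8 for KMT9alpha, 17.9 for KMT9beta, 11.8 for H4K12me1, 5.8 for all 3 and 51.0 for none. The ratio was also taken from 250 bases before to 50 after the most 5′ GENCODE start. The classes then gave 15.3 for KMT9alpha, 25.3 for KMT9beta, 16.9 for H4K12me1, 9.5 for all 3 and 43.1 for none. Each was farther from the observed count. Whether the lower KMT9alpha count differs from that of like promoters cannot be tested with 1 library and members of shared descent.

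**Figure D1:**
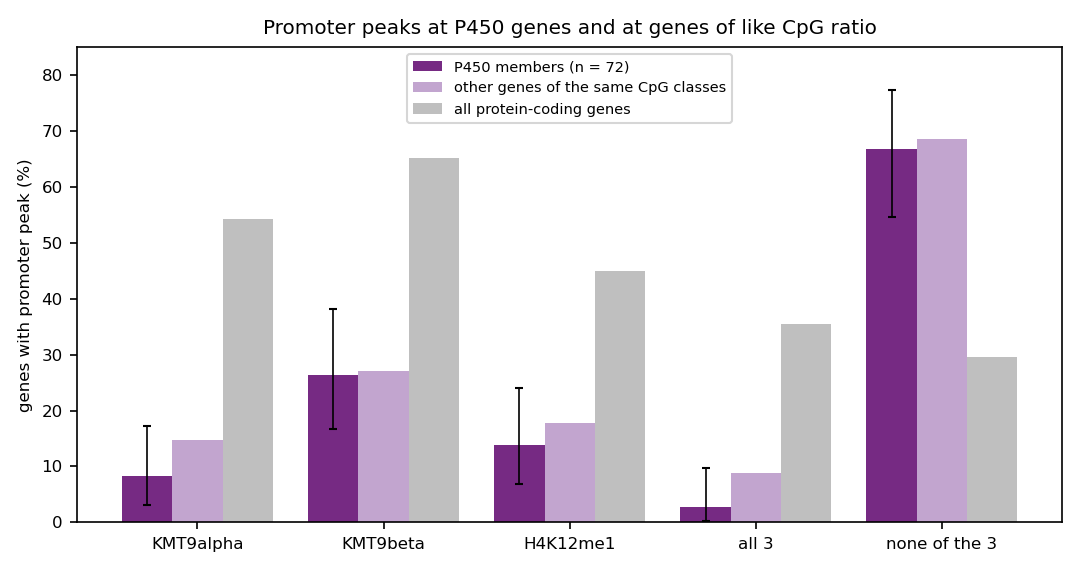
Share of genes with a promoter peak (%), for each library, all 3 together and none; dark bars are the 72 P450 members with 95% exact binomial intervals, light bars the share that other genes of the same 5 CpG classes would give, grey bars all 21853 protein-coding genes. KMT9beta and the members with none lie nearest to the light bars, and KMT9alpha is at 8.33% beside 14.7%; the lists differ in length, and with 26146 peaks each 6 members have KMT9alpha beside 10.6 and 6 have KMT9beta beside 10.4.

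Within class 1, KMT9beta was at 17.6% of the members and 16% of the other genes, KMT9alpha at 3.92% and 6.62%, and H4K12me1 at 5.88% and 10.5%. Within class 2, KMT9beta was at 43.8% of the members and 44.3% of the other genes, KMT9alpha at 18.8% and 22.4%, and H4K12me1 at 25% and 29.4%. With the full lists, members and other genes had much the same share with KMT9beta in both classes. That nearness depended on the length of the KMT9beta list: with peaks at or above each list's median score 8 members had KMT9beta beside 14.1 from the CpG classes, and with 26146 peaks in each list 6 had it beside 10.4. At that equal length KMT9alpha was at 6 members beside 10.6, so both subunits then fell short of like promoters alike. None of the 3 members of class 3 had KMT9alpha, which 64.4% of the other genes of that class carried, and 3 genes are too few to set a share against it.

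A gene with more annotated starts has more windows in which a peak can fall. The members had a median of 1 start and the other genes a median of 2. When only the start of the gene record was used, KMT9alpha was at 6 members beside 7.8 from the CpG classes, KMT9beta at 18 beside 15.9, H4K12me1 at 8 beside 9.5, all 3 at 2 beside 4.0 and none at 50 beside 52.9. The distance between the members and like promoters in KMT9alpha thus narrowed when each gene was given 1 window.

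Close copies can also lose peaks, because reads that match several places are often set aside. In the members' promoters a median of 95.2% of 50-base stretches occurred once in the genome, against 99.5% in the other genes. Cyp2a4 and Cyp2a5, which encode hydroxylases of steroids and coumarin, had shares of 48.1% and 50.2%. Among class 1 promoters at least 80% unique, KMT9alpha was at 2.38% of 42 members and 7.96% of the other genes, KMT9beta at 16.7% and 19.4%, and H4K12me1 at 4.76% and 12.7%, on counts of only 1, 7 and 2 members. Among class 2 promoters at least 80% unique, the 14 members and the other genes were closer, with KMT9alpha at 21.4% and 24.2%, KMT9beta at 50.0% and 48.2%, and H4K12me1 at 28.6% and 31.9%. In class 1 promoters under 80% unique, KMT9alpha was at 1 of 9 members (11.1%) and at 2.72% of the other genes. How reads with several matches were treated is not stated in these sources, and its part in the counts was not tested.

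The Cyp4f genes, whose products hydroxylate leukotriene B4 and related eicosanoids, held 3 of the 6 members with a KMT9alpha promoter peak. Of 9 Cyp4f members, 4 had KMT9beta at the promoter and 2 had H4K12me1. With 20 CpG classes, other genes of these members' classes had KMT9alpha at 2.23 to 29.7% and KMT9beta at 7.72 to 52.2%. H4K12me1 was at 4.93 to 33.1% of them. The subfamily was picked out after the counts were seen, and whether it differs from like promoters was not tested. Cyp4f17 (ENSMUSG00000091586.2, chromosome 17, 32506050 to 32530143, plus strand, CpG ratio 0.32) had 2 KMT9alpha promoter peaks with the authors' scores of 1303.61 and 275.93, a KMT9beta peak of 133.96 and an H4K12me1 peak of 93.84. Cyp4f13 (ENSMUSG00000024055.15, 32924688 to 32947402, minus strand, ratio 0.219) had a KMT9alpha peak of 1047.07, a KMT9beta peak of 258.72 and an H4K12me1 peak of 158.88, each touching an exon and reaching across the start. Cyp4f16 (ENSMUSG00000048440.16, 32536558 to 32551798, plus strand, ratio 0.13) had 301.05 for KMT9alpha and 51.17 for KMT9beta. Its KMT9beta score was close to 50.0, the lowest in that list. Cyp4f37 carried KMT9beta alone, at 72.07. Cyp4f39, the mouse counterpart of a human skin ceramide hydroxylase gene, lay next to Cyp4f17 with a similar ratio of 0.308 and had no promoter peak.

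Away from the Cyp4f genes KMT9alpha was found at Cyp2j6, Cyp2u1 and Cyp2c29, none of which had H4K12me1 at the promoter. Cyp2j6, one of a subfamily of arachidonic acid epoxygenases (ENSMUSG00000052914.4, chromosome 4, 96516138 to 96553661, minus strand, ratio 0.202), had 658.87 for KMT9alpha and 82.17 for KMT9beta. Among other genes of its CpG class, when genes were divided into 20 classes and not 5, 15.8% had KMT9alpha. The other 7 Cyp2j members had no KMT9alpha promoter peak. Cyp2u1, a hydroxylase of long-chain fatty acids (ENSMUSG00000027983.13, chromosome 3, 131288441 to 131303227, minus strand), had 413.54 for KMT9alpha and 113.49 for KMT9beta. Its ratio of 0.627 was the second highest of the members, and 84.0% of other genes of its class of 20 had KMT9alpha. Cyp2c29, an arachidonic acid epoxygenase of liver (ENSMUSG00000003053.17, chromosome 19, 39269405 to 39330713, plus strand, ratio 0.063), had a single KMT9alpha peak of 184.43. That peak began 530 bp inside the gene from the most 5′ GENCODE start, in an intron, and the RefSeq start lay 17680 bp away. Only 56.2% of the 50-base stretches in this promoter were unique.

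**Figure D2:**
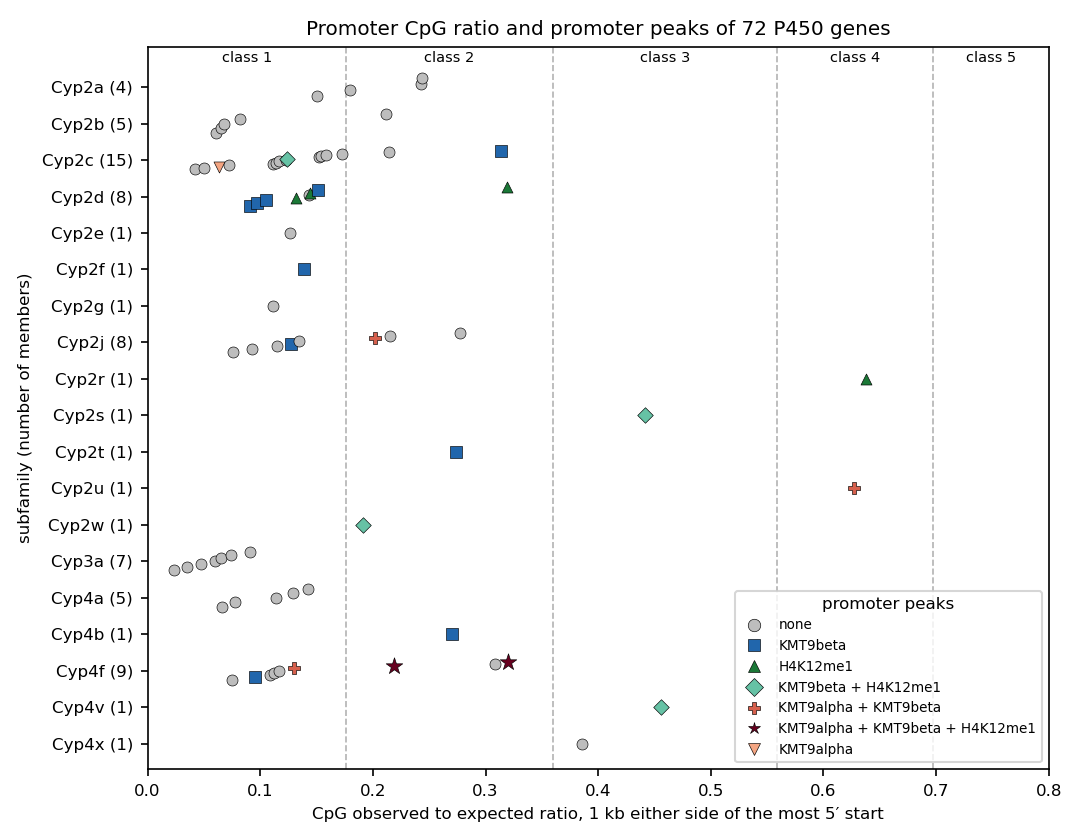
CpG observed to expected ratio in the 1 kb on either side of the most 5′ start (x axis, no unit) for each of the 72 members, 1 row per subfamily with its number of members; symbols give the promoter peaks and dashed lines the bounds of the 5 CpG classes. Most members lie below 0.36, and Cyp2r1 at 0.638 and Cyp2u1 at 0.627 are the highest.

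Of the 5 members in CpG classes 3 and 4, Cyp2u1 alone had KMT9alpha. Cyp2r1, which encodes a vitamin D hydroxylase acting in the first step of its activation (ENSMUSG00000030670.16, chromosome 7, 114549682 to 114562972, minus strand), had the highest ratio, 0.638. It had an H4K12me1 peak of 82.5 (chromosome 7, 114562564 to 114563230) across its start and neither subunit. Among other genes of its class of 20, 85.7% had KMT9alpha and 92.3% had KMT9beta. The nearest KMT9alpha peak lay 146247 bp from its start and the nearest KMT9beta peak 146146 bp. Every 50-base stretch in this promoter was unique. H4K12me1 without either subunit was the pattern of 5.56% of the members and 3.26% of the other genes of CpG classes 1 and 2, and of 1.76% of the other genes of classes 3 and 4, in which Cyp2r1 lies.

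KMT9beta together with H4K12me1, without KMT9alpha, marked the promoters of 4 members (5.56%), against 6.7% of the other genes and 7.55% of those in CpG classes 1 and 2. Cyp4v3, counterpart of the human gene mutated in Bietti crystalline dystrophy (ENSMUSG00000079057.4, chromosome 8, 45304944 to 45333216, minus strand, ratio 0.456), had 158.28 for KMT9beta and 137.25 for H4K12me1, both across the start. Cyp2s1, an enzyme of epithelia outside the liver (ENSMUSG00000040703.11, chromosome 7, 25802475 to 25816913, minus strand, ratio 0.442), had KMT9beta peaks of 258.69 and 112.84 and an H4K12me1 peak of 64.71 that began 831 bp from a start. Both lay in a class of 20 in which 61.8% of other genes had KMT9alpha, and their nearest KMT9alpha peaks lay 25189 bp (Cyp4v3) and 60398 bp (Cyp2s1) away. Cyp2w1, whose human counterpart is known from fetal colon and colorectal tumours (ENSMUSG00000029541.12, chromosome 5, 139352617 to 139357033, plus strand, ratio 0.191), was covered by 2 broad KMT9beta peaks. They were 3766 and 4070 bp wide with scores of 367.48 and 426.99, the highest KMT9beta promoter score of the members, and H4K12me1 peaks of 86.01, 87.48 and 72.42 lay within them. The nearest KMT9alpha peak began 2633 bp from an annotated start of Cyp2w1, outside the window, and overlapped the wider KMT9beta peak. Cyp2c40, an arachidonic acid hydroxylase gene on chromosome 19 with a ratio of 0.124, had 67.28 for KMT9beta and 96.98 for H4K12me1 in an intron, 895 and 804 bp from a start and so near the edge of the window.

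**Figure D3:**
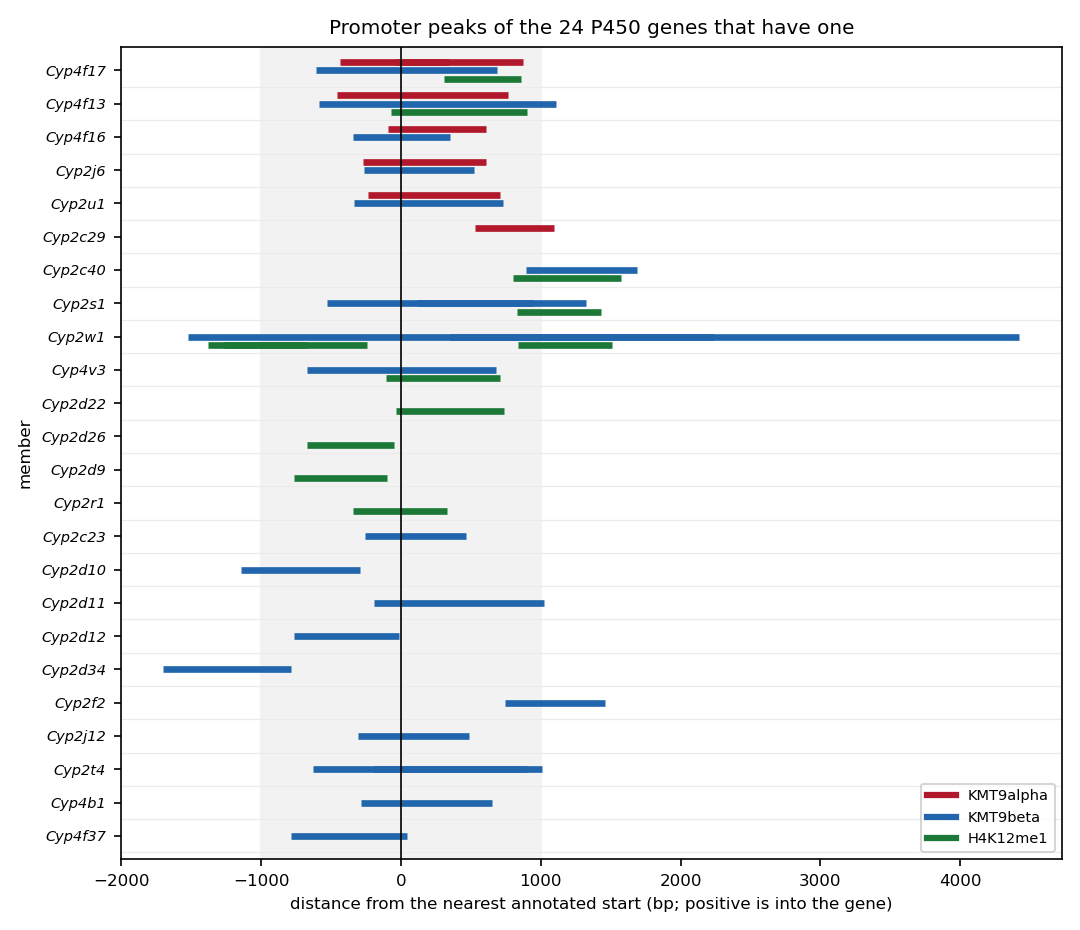
Extent of the promoter peaks of the 24 members that have one, by distance from the nearest annotated start (bp, positive into the gene); grey marks the 1 kb window. KMT9alpha and KMT9beta overlap at Cyp4f17, Cyp4f13, Cyp4f16, Cyp2j6 and Cyp2u1, and the Cyp2w1 peaks are the widest.

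The Cyp2d genes, which include Cyp2d22, held as the nearest mouse counterpart of the human drug-oxidising CYP2D6, showed KMT9beta or H4K12me1 at the promoter but not both. Of 8 members, Cyp2d10, Cyp2d11, Cyp2d12 and Cyp2d34 had KMT9beta alone, with scores of 68.74, 113.48, 65.04 and 77.73. Cyp2d22, Cyp2d9 and Cyp2d26 had H4K12me1 alone, with 114.82, 82.83 and 71.0. Only Cyp2d40 had neither. These calls depended on list length and score. With peaks at or above each list's median score, only Cyp2d11 kept KMT9beta, and Cyp2d22 and Cyp2d9 kept H4K12me1. With 26146 peaks in each list, no Cyp2d member kept KMT9beta and only Cyp2d22 kept H4K12me1. On chromosome 15, KMT9beta was at 49.8% and H4K12me1 at 35.1% of the other genes of CpG classes 1 and 2. These pooled classes are not matched to the Cyp2d members, which lay in class 1 except for Cyp2d22. Over the genome, KMT9beta was at 16% of the other genes in class 1 and 44.3% in class 2. For H4K12me1 these shares were 10.5% and 29.4%. Whether the Cyp2d members differ from like promoters was not tested. Both together marked 7.55% of the other genes of classes 1 and 2 over the genome without KMT9alpha and 8.63% with it. With 8 members, the lack of a promoter with both is thus too little to show a separation. In the gene bodies no such division was seen: Cyp2d22 and Cyp2d9 had KMT9beta body peaks, and Cyp2d10, Cyp2d12 and Cyp2d34 had H4K12me1 body peaks. The 424 kb stretch that holds them had no KMT9alpha peak, while its KMT9beta density of 63.7 peaks per Mb was above the 34.1 per Mb of the genome. Among the KMT9beta peaks that of Cyp2d34 lay near the edge of the window, 788 bp from the start.

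With the full lists, of which that of KMT9beta is the longest, KMT9beta alone was the commonest pattern among members with a peak. Besides the Cyp2d genes and Cyp4f37 it was found at Cyp2c23, Cyp2f2, Cyp2j12, Cyp2t4 and Cyp4b1. The highest of these scores was 135.2 at Cyp2t4, which had a further peak of 119.16. Cyp4b1, an enzyme known from lung, had 83.22, Cyp2c23, an epoxygenase of kidney, had 62.94, Cyp2f2, which activates naphthalene in lung club cells, had 61.05, and Cyp2j12 had 59.72. This pattern marked 13.9% of the members, 7.39% of the other genes and 10.5% of the other genes in CpG classes 1 and 2. With 26146 peaks in each list, 6 members had KMT9beta. Of the members with KMT9beta alone in the full lists, only Cyp2t4 was among those 6.

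Median promoter scores of the members were lower than those of other genes of CpG classes 1 and 2 in the lists of both subunits. The 2 groups are not matched, since the members with a peak include Cyp2u1 of class 4 and Cyp2s1 and Cyp4v3 of class 3. The median KMT9alpha score of the 6 members was 536, against 741 for other genes of CpG classes 1 and 2 with such a peak and 2650 for all other genes with one. With 6 members this order is loose: their lower quartile was 329, against 257 in those classes, and their lowest score 184.43, against 54.79. For KMT9beta the medians were 82.2 in 19 members, 129 in those classes and 207 in all other genes. For H4K12me1 they were 90.7 in 10 members, 88.3 and 104, so that this list gave no such order between members and genes of those classes. In the KMT9alpha list 18.6% of peaks carry the same score of 3100.0, so peaks at that value cannot be ranked against each other.

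At member promoters where both subunits had peaks, they shared bases. Of 7 KMT9alpha promoter peaks at members, 6 shared a base with a KMT9beta peak, the exception being that of Cyp2c29, and 2 shared one with H4K12me1. Of 22 KMT9beta promoter peaks, 7 shared a base with H4K12me1, and of 12 H4K12me1 promoter peaks 8 did so with KMT9beta. In gene bodies outside promoters, 5 of 7 KMT9alpha peaks shared a base with KMT9beta. The 2 subunits also went together at other genes. There 15.6% had both without H4K12me1, 35.6% had all 3 and 2.59% had KMT9alpha alone. Shared bases were not counted over all promoter peaks, so these overlaps are not a trait of the members. No promoter peak belonged to more than 1 member, and none of the 72 promoters was shared with another protein-coding gene.

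Several well-known inducible genes of liver were among the 48 members with no promoter peak. All 7 Cyp3a, all 5 Cyp4a, all 4 Cyp2a and all 5 Cyp2b members lacked one. These subfamilies lie in CpG classes 1 and 2, where 80.8% and 47.7% of the other genes also had none. In the Cyp3a, Cyp4a and Cyp2a subfamilies no member had a peak in the gene body either. Taking 3 counts as the limit that a count of 0 allows, 0 of 7 Cyp3a members allows a share of up to 42.9%. Cyp3a11, the main drug-oxidising Cyp3a enzyme of mouse liver (ENSMUSG00000056035.8, chromosome 5, 145854426 to 145879964, minus strand, ratio 0.06), lay 50886 bp from the nearest KMT9alpha peak. For Cyp3a13, a Cyp3a gene also used in intestine, with a ratio of 0.074, that distance was 133739 bp, and for Cyp4a10, a fatty acid hydroxylase gene induced through PPARalpha, with a ratio of 0.078, it was 219064 bp. Cyp2b10, a standard target of the receptor CAR (ratio 0.212), had 1 H4K12me1 peak of 75.64 in its body, 2228 bp from a start. Cyp2e1, which oxidises ethanol (ratio 0.126), had a KMT9beta peak of 104.05 in an intron. Cyp2c65, a member known from intestine (ratio 0.123), had no peak in promoter or body.

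Among members without a promoter peak, the highest CpG ratios were those of Cyp4x1 at 0.386, Cyp4f39 at 0.308, Cyp2j9 at 0.277, Cyp2a4 at 0.244 and Cyp2a5 at 0.243. The nearest KMT9alpha peaks lay 38005 bp from Cyp4x1 and 37645 bp from Cyp2j9. For Cyp4x1, 45.6% of other genes in its class of 20 had KMT9alpha and 64.9% had KMT9beta. In Cyp2a4 and Cyp2a5 the repeated sequence given above limits what an absent peak shows.

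Inside the gene bodies KMT9beta and H4K12me1 were more often found than at the promoters. A KMT9alpha peak lay in the body of 9 members (12.5%), against 59.3% of all protein-coding genes. A KMT9beta peak lay in 32 (44.4%), against 72.7%, and an H4K12me1 peak in 26 (36.1%), against 58.9%. Outside promoter windows the counts were 5, 27 and 18 members. Other genes of like length would give 13.1, 37.4 and 30.8, and other genes of like length and promoter CpG ratio would give 9.2, 27.6 and 23.1, a comparison added after the values were seen. Peaks outside promoters were also counted per Mb of whole gene record, with promoter windows left in the length. The members held 3.7 KMT9alpha, 21.7 KMT9beta and 14.3 H4K12me1 peaks per Mb, against 7.2, 41.4 and 27.1 in the other genes. At 17 members (23.6%) there was a peak in the body but none at the promoter, against 7.13% of the other genes, and 31 members (43.1%) had no peak in either, against 22.3%. Both shares depend on the promoter counts, since 66.7% of the members and 29.4% of the other genes had no promoter peak. No share from genes of like CpG ratio or length was set beside them.

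Only body peaks outside promoter windows are ranked here, and the highest of them in the members was in Cyp4f13. It was a KMT9alpha peak of score 3100.0 at 32924532 to 32925599, over an exon at the 3′ end of the gene, 22.3 kb from its start, with a KMT9beta peak of 375.08 on the same bases. The only annotated start within 1 kb of it was that of a Cyp4f13 transcript with a retained intron. Cyp4f17 had a pair over an exon near its own 3′ end, also 22.3 kb from the start, of 1279.64 for KMT9alpha and 224.48 for KMT9beta. The remaining body peaks of KMT9alpha were lower, and the next were 321.98 in an intron of Cyp2c67, 232.88 and 209.36 in Cyp2c23. Cyp2c23 also held the highest H4K12me1 body peak, 163.32 over an exon, together with 101.15 in an intron. Next in that list were 114.0 at Cyp2d34, 112.04 at Cyp4f18, a leukotriene hydroxylase gene of neutrophils, and 104.39 at Cyp2j8. For KMT9beta the highest after Cyp4f13 and Cyp4f17 were 152.93 at Cyp2t4, 136.92 at Cyp2s1 and 135.29 at Cyp2c50.

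Distances to the nearest peak were taken for every gene. From the most 5′ start of the members the median distance to a KMT9alpha peak was 71.6 kb, against 44.9 kb for other genes of CpG classes 1 and 2 and 0.36 kb for all other genes. For KMT9beta the medians were 15, 12.9 and 0.0 kb, and for H4K12me1 26.2, 22.1 and 3.82 kb. More than 50 kb separated 61.1% of the members from KMT9alpha, against 47.8% of other genes in classes 1 and 2. The order was the other way for KMT9beta, at 15.3% of the members against 26.2%, and for H4K12me1, at 33.3% against 36.2%. Among genes with no promoter peak the KMT9alpha medians were close, 110 kb for 48 members and 105 kb for the other genes. The pooled classes 1 and 2 are not matched to the members. Of the members 51 lay in class 1 and 16 in class 2, against 4320 and 4355 of the other genes. KMT9alpha promoter peaks were at 6.62% of the other genes in class 1 and 22.4% in class 2. The part of this mismatch in the distances was not tested.

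**Figure D4:**
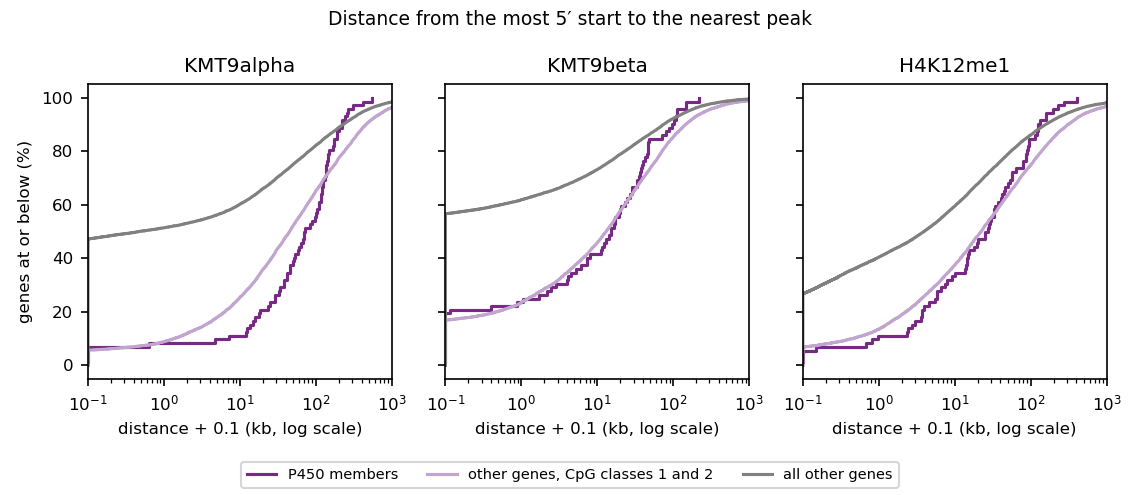
Share of genes (%) whose most 5′ start lies within a given distance of the nearest peak (kb plus 0.1, log scale), 1 panel per library; dark purple is the 72 members, light purple other genes of CpG classes 1 and 2, grey all other genes. For KMT9alpha the members' lower quartile (28.7 kb) and median (71.6 kb) lie farther out than those of the light line (9.63 and 44.9 kb). Their upper quartile lies nearer, at 139 kb beside 176 kb. For KMT9beta the medians are close, at 15 and 12.9 kb. The light group holds a larger part of class 2 than the members do.

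Tandem runs, taken as members no more than 250 kb apart, held 64 of the members. There were 9 runs of 2 or more members, which together spanned 4.75 Mb, and 8 single members outside them. KMT9alpha had 4.21 peaks per Mb in the 9 runs and 9.88 over the genome, KMT9beta 23.8 and 34.1, and H4K12me1 12.4 and 22.8. The Cyp4f run on chromosome 17 (32452723 to 32947402), which also holds 4 other protein-coding genes, had 22.2 KMT9alpha peaks per Mb and was the run with the most. The Cyp2c run on chromosome 19 (39007019 to 40187333), with 14 members, had 4.24, 22.0 and 11.9 peaks per Mb of KMT9alpha, KMT9beta and H4K12me1. Some genes with a KMT9alpha promoter peak lay close to a run, such as Ndufa6 at 16.2 kb from the Cyp2d run and Zfp472 at 18.4 kb from the Cyp4f run.

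**Figure D5:**
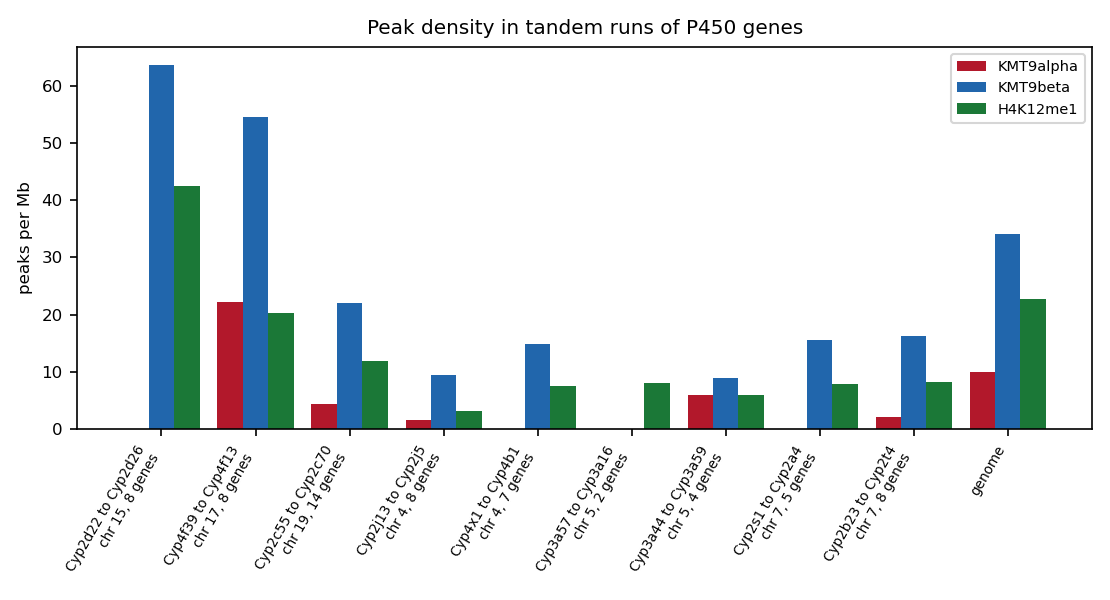
Peaks per Mb in the 9 runs of 2 or more members, with the whole genome at the right; colours give the library and labels the first and last member, the chromosome and the number of member genes. The Cyp4f run reaches 22.2 KMT9alpha peaks per Mb beside 9.88 for the genome, and the Cyp2d run has none but 63.7 of KMT9beta beside 34.1.

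Chromosome 19 held 15 members and stands high in H4K12me1, which was at 73.7% of its other genes and at 42.9% of those in CpG classes 1 and 2. Of its 15 members, all in the Cyp2c subfamily, 1 had H4K12me1. KMT9alpha was at 1 member, against 68.4% of the other genes on the chromosome and 26% of those in classes 1 and 2. KMT9beta was at 2 members, against 80.1% and 47.2%. The pooled classes are not matched to these members, which lay in class 1 except for Cyp2c23 and Cyp2c50. Over the genome, KMT9alpha was at 6.62% of the other genes in class 1 and 22.4% in class 2. For H4K12me1 these shares were 10.5% and 29.4%. Whether the Cyp2c members differ from like promoters of the chromosome was thus not tested. The lowest share of unique 50-base stretches in a Cyp2c promoter was 56.2%, and the part of repeated sequence in the Cyp2c counts was not tested.

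The letters of the members' promoters were compared with those of all promoters. RefSeq promoter windows were matched for 59 of the 72 members and set beside 32851 promoters in all. The median number of CpG dinucleotides was 2 in the members and 7 in all promoters. The letters TATAAA, read on both strands, were found in 25 members (42.4%) and in 13.6% of all promoters. Among promoters with at most 4 CpG dinucleotides they were found in 49% of the members and 23.0% of the others. The letters CAAAGTCCA, a form of the direct repeat read by HNF4-type nuclear receptors, were found in 8 members (13.6%) and in 0.475% of all promoters. These 8 were Cyp2c40, Cyp2c65, Cyp2c67, Cyp2c68, Cyp2c69, Cyp2c70, Cyp3a11 and Cyp3a16, of which only Cyp2c40 had a promoter peak. The letters GCGTG, the core read by the aryl hydrocarbon receptor, were in 16.9% of the members and 32.4% of all promoters, and in 9.8% of the members and 8.03% of the others with at most 4 CpG dinucleotides. None of the 3 strings contains another, a match is a run of letters and not a bound site, and tandem copies share their letters by descent.

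Other genes of P450 biology were counted in the same way. The electron donors, among them Por, the oxidoreductase of microsomal P450 enzymes, and also Fdx1 and Fdxr, which serve mitochondrial P450 enzymes of other families, had KMT9alpha at 6 of 6 promoters, KMT9beta at 5 and H4K12me1 at 2. Their CpG classes would give 4.1, 4.8 and 3.3 with KMT9alpha, KMT9beta and H4K12me1. Por itself, with a CpG ratio of 0.203 like that of Cyp2j6, had a KMT9alpha score of 1756.12, a KMT9beta score of 352.74 and an H4K12me1 score of 74.15. Of 14 transcription factors known to regulate P450 genes, 12 had KMT9alpha, 12 had KMT9beta, 11 had H4K12me1, 9 had all 3 and none lacked a peak. Hnf4a had 668.28 for KMT9alpha, 130.28 for KMT9beta and 99.93 for H4K12me1, and Nr1i2, the receptor PXR, had 178.39 for KMT9alpha and 71.14 for KMT9beta. The CpG classes of these 14 genes would give 7.7 with KMT9alpha, 9.4 with KMT9beta and 6.7 with H4K12me1. Of 24 genes of other P450 families, 9 had KMT9alpha, 15 had KMT9beta, 12 had H4K12me1 and 7 had none, beside 11.6, 14.7, 10.0 and 7.9 from their CpG classes. Of 10 epoxide hydrolase and eicosanoid genes, 4 had KMT9alpha, 5 had KMT9beta and 3 had H4K12me1, each below the 5.2, 6.6 and 4.3 that their CpG classes would give. Among them Ephx1, the microsomal epoxide hydrolase, had 2015.18 for KMT9alpha, 576.87 for KMT9beta and 75.64 for H4K12me1 at a CpG ratio of 0.166.

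As a check of the labelled tissue, promoter peaks were counted at marker genes. Of 11 colon epithelium markers 10 had a KMT9alpha promoter peak, beside 7.4 from their CpG classes, the exception being Krt20. None of 7 hepatocyte markers had KMT9alpha or H4K12me1, beside 1.3 and 1.7 from their classes, and 1, Apoa1, had KMT9beta, beside 2.5. None of 5 immune cell markers had KMT9alpha or KMT9beta, beside 1.1 and 1.7, and 1 had H4K12me1, beside 1.1. Of 5 fibroblast markers 3 had KMT9beta alone, beside 1.9 with KMT9beta from their classes, and none had KMT9alpha, beside 1.0. The counts of 0 are thus near what promoters as poor in CpG give, and the check is weak for those lists. These are peak calls and not transcript levels, and no RNA measurement was used here, so which members the organoids transcribe was not tested.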

How the data were processed

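Peak lists, for KMT9alpha (26227 peaks), KMT9beta (90473) and H4K12me1 (60409), were used as deposited; 26146, 90349 and 60289 lay on the main chromosomes. Each peak has a position and a score given by the authors, at least 50.0 in each list and used only to describe peaks within a list. Reads were mapped to mm10, per the labels' protocols with STAR; the submitters' processing notes name Bowtie2. Peak names begin with MACS; for the caller's version, threshold and control: not given in the sources used here. Depth is unknown.

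A peak counted at a promoter when 1 base or more lay within 1 kb of a start of any protein-coding transcript (GENCODE vM21), and in a gene body when it overlapped the gene record. The CpG ratio came from the GRCm38.p6 sequence, and uniqueness from exact matches of 50-base stretches. Counts were set beside all 21853 genes and genes of like CpG class, with exact Clopper-Pearson intervals at 95%. With 1 library per antibody no test was run. Steps were tested on simulated data and run with Python 3.11.15, numpy 2.4.6, pandas 2.3.3 and scipy 1.17.1. Named genes were the members with KMT9alpha or H4K12me1, those with KMT9beta alone and the 5 of highest CpG ratio with none. Those with the 5 highest body peaks outside promoters per library and a fixed list of well-known members were also named. The members and lists were chosen with earlier results of these data known. Other windows, starts, score cutoffs and CpG classes were tried. The symbol rule left out 6 genes of these families with longer names, and none of the 6 had a promoter peak.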

Additional observations from a re-analysis of the deposited data

How the results depend on the processing

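Of 76 values recomputed under alternatives, 64 stayed within 1.5 times the value reported. Some of the 64 could not move. Leaving out shared promoters kept all 72 members, and the list length of 26146 is that of the full KMT9alpha list. Keeping only peaks at or above each list's median score left 8 members with a KMT9beta promoter peak, and 5, 19 and 17 with a gene body peak of KMT9alpha, KMT9beta and H4K12me1. Taking the 26146 highest peaks of each list left 6 members with KMT9beta and 6 with H4K12me1 at the promoter, and 10 with KMT9beta and 14 with H4K12me1 in the body. KMT9alpha body peaks were in 5 members without the promoter windows and in 5 of 57 members without chromosome 19. Without the Cyp4f subfamily, an alternative chosen after seeing the data, 3 of 63 members had KMT9alpha and 0 had all 3. Promoter counts thus depend on list length and score cutoff for KMT9beta, on list length for H4K12me1 (8 with the score cutoff), and on 1 subfamily for KMT9alpha.

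No paired analysis was possible because each antibody has 1 library and shares its condition with the others. With no replicates, no alternative left out a sample. An absent peak is a call below the authors' threshold at unknown depth, not an absence of protein or mark.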

Other observations

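Some members of like CpG ratio differed in their peaks, and their values are set side by side. Cyp4f17 and Cyp4f39, neighbours on chromosome 17 with ratios of 0.32 and 0.308, had promoter peaks of all 3 libraries (Cyp4f17) and of none (Cyp4f39). Cyp2u1 and Cyp2r1, with ratios of 0.627 and 0.638, had both subunits without H4K12me1 (Cyp2u1) and H4K12me1 without either subunit (Cyp2r1). Their classes of 20 gave KMT9alpha at 84.0% and 85.7% of other genes. The cause of neither difference was tested.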
